A study of Mus musculus with 8 samples.

Results

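The 10 genes described here, Psmb8, Psmb9, Psmb10, Psme1, Psme2, Tap1, Tap2, B2m, H2-K1 and H2-D1, make, carry and display peptides on major histocompatibility complex (MHC) class I molecules. They were chosen by name, with earlier results of these data known. Their probes were found by matching the accession given with each array probe to a gene symbol. All 10 passed the filter on dim probes and were among the 13332 genes tested. Psmb8, Psme2, B2m and H2-D1 had 2 kept probes each, H2-K1 had 3, and the other members had 1. Where there were several, the brightest on average was used for the levels below. A level below is the log2 of the scanner's processed intensity minus the 75th percentile of its array, so that 0 is the level of a fairly bright probe and 1 unit is a factor of 2. Levels compare the same probe between arrays and do not rank the genes against each other.

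RNA of secondary neurospheres, floating colonies grown from dissociated hippocampal neural stem cell cultures of mice 7 to 9 weeks old, was hybridised to 8 one-colour Cy3 Agilent arrays, 2 per group. The Sirt1 KO group and its WT group were of strain 129/ICR and were harvested after 6 days in culture, with replicate 1 labelled female and replicate 2 male in each. The resveratrol and DMSO groups were WT cells of strain C57BL/6, all male, kept for 5 days and then given the agent or DMSO for 24 hours. The labels give the resveratrol dose as 10 with the unit written "mm". SIRT1 is an NAD-dependent deacetylase, resveratrol a plant polyphenol used to activate it, and DMSO the solvent. The labels give neither the deleted part of Sirt1 nor whether the 2 replicates of a group were separate animals or cultures, and p-values are therefore limited to the variation among these arrays, which may be technical.

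Cells cut cytosolic proteins in the proteasome, move the peptides into the endoplasmic reticulum, and load them on class I molecules that travel to the surface, where CD8 T cells read them. Interferon and NF-kB signals switch on immunoproteasome subunits, the peptide transporter and the heavy chains together in most cell types. Neural cells at rest are known for low class I display, and B2m and class I heavy chains also have roles in synapse pruning.

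The windows around the transcription starts of the members that the comparisons turn on are shown first, because 4 of the members are neighbours and some of the others carry the same motifs. Psmb9, Tap1, Psmb8 and Tap2 lie in this order on mouse chromosome 17, inside the MHC. Windows of 300 bases, 250 before and 50 after the start, came from RefSeq on GRCm38.p6 and were found for 9 members, and Tap2 is named only. The array files name build mm9, so these coordinates are not those of the probes. Capitals mark the motif matches named below the sequences.
Tap1, chr17:34187306-34187605, plus strand: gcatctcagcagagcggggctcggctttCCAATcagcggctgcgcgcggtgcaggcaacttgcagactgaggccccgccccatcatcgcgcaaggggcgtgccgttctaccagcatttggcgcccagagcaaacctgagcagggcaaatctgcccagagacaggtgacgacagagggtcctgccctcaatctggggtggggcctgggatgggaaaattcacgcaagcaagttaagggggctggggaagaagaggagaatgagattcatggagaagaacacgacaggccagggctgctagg
Psmb8, chr17:34197945-34198244, plus strand: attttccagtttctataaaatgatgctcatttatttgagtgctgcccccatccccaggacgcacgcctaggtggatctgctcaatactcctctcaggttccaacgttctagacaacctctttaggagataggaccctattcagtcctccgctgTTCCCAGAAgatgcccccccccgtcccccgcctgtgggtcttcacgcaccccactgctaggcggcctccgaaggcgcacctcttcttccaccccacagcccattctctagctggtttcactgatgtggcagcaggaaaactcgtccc
B2m, chr2:122147437-122147736, plus strand: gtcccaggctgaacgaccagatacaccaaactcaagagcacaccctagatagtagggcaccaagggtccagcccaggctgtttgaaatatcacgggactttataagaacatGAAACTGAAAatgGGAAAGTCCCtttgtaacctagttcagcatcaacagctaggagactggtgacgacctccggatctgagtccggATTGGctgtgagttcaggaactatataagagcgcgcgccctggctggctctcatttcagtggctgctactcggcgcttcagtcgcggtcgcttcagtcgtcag
H2-K1, chr17:34000298-34000597, minus strand: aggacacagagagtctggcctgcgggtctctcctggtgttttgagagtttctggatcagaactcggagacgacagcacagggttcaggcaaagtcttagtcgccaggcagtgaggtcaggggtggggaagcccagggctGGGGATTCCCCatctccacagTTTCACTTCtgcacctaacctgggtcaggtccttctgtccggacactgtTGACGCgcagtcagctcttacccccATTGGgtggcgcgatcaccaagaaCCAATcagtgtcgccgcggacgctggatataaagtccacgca
H2-D1, chr17:35262844-35263143, plus strand: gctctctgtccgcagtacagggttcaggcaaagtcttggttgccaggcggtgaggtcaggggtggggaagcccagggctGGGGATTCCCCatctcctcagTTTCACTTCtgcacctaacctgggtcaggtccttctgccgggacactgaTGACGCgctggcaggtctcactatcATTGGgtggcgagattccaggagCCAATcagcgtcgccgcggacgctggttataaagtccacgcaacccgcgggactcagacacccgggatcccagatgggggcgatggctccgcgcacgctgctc

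Tap1 and Psmb9 are read in opposite directions from starts 226 bases apart, and their windows share 275 bases. The H2-K1 and H2-D1 windows aligned over 239 bases, of which 214 (89.5%) were identical. The search covered 6 short motifs on both strands, and the share of all 32851 RefSeq windows of this length that hold each is the scale for reading a match. The interferon-stimulated response element, GAAA and GAAA with any 2 bases between (3.44% of windows), stood in the B2m window and in that of Psme1. A looser pair of interferon regulatory factor sites, GAANNGAAA (7.52%), was added after the windows had been seen and matched H2-K1, H2-D1 and Psme1, where it overlaps the stricter motif. The NF-kB consensus (8.46%) matched B2m at 1 place and H2-K1 and H2-D1 at 2 overlapping places each. The gamma-activated site TTCNNNGAA (8.3%) matched Psmb8 alone among the members, and TGACGC (7.4%), the core of the X2 box, matched H2-K1, H2-D1 and Psme2. The 5 bases CCAAT (37.4%), the core of the Y box, matched Tap1, Psmb9, B2m, H2-K1 and H2-D1. The Tap1 and Psmb9 matches are the same 5 bases of their shared stretch, read on opposite strands. No motif of the 6 matched in the Psmb10 window. A match describes letters in this window and does not show binding.

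Arrays differed in brightness. The 75th percentile of the signal lay between 249 (WT replicate 2) and 872 (Sirt1 KO replicate 1), and the share of probes well above background between 53.1% and 72.0%, lowest in WT replicate 2 and highest in DMSO replicate 1. Replicate 2 was the dimmer array in all 4 groups, and the first principal component of all genes, 48.8% of the variance, separated replicate 1 from replicate 2. The arrays lay on 3 slides: slide 1 held WT 1, resveratrol 1 and DMSO 1, slide 2 held Sirt1 KO 1, resveratrol 2 and DMSO 2, and slide 3, scanned on a day of its own, held Sirt1 KO 2 and WT 2. A difference between resveratrol and DMSO of the same number is therefore a difference within a slide, while of the Sirt1 KO and WT pairs only replicate 2 shares a slide. The brighter of the 2 Sirt1 probes read 0.42 and -0.07 on the arrays labelled Sirt1 KO and 0.16 and 0.17 on the WT arrays, so its groups overlapped. The other Sirt1 probe read -1.01 and -1.92 on the arrays labelled Sirt1 KO and -1.34 and -0.99 on the WT arrays. Whether these probes lie in the deleted part is not given in the sources used here, so Sirt1 RNA does not check the genotype labels.

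The cultures carried the markers of neural progenitors. Nes, Sox2 and Fabp7 were well above background on 8 of 8 arrays, and 14 of 15 progenitor markers were so on every array. Ptprc and Aif1, defining markers of leukocytes and microglia, and Pecam1 and Cdh5, defining markers of endothelium, were well above background on 0 arrays, and so were 11 of 17 microglia and macrophage markers on the array, while Csf1r was above it on 8. Of the 12 endothelial markers 6 were above it on 0 arrays and 3 on all 8. Cd74, the class II invariant chain, was above background on 6 arrays. In bulk RNA, fewer cells of a type and less RNA per cell cannot be told apart.

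**Figure D1:**
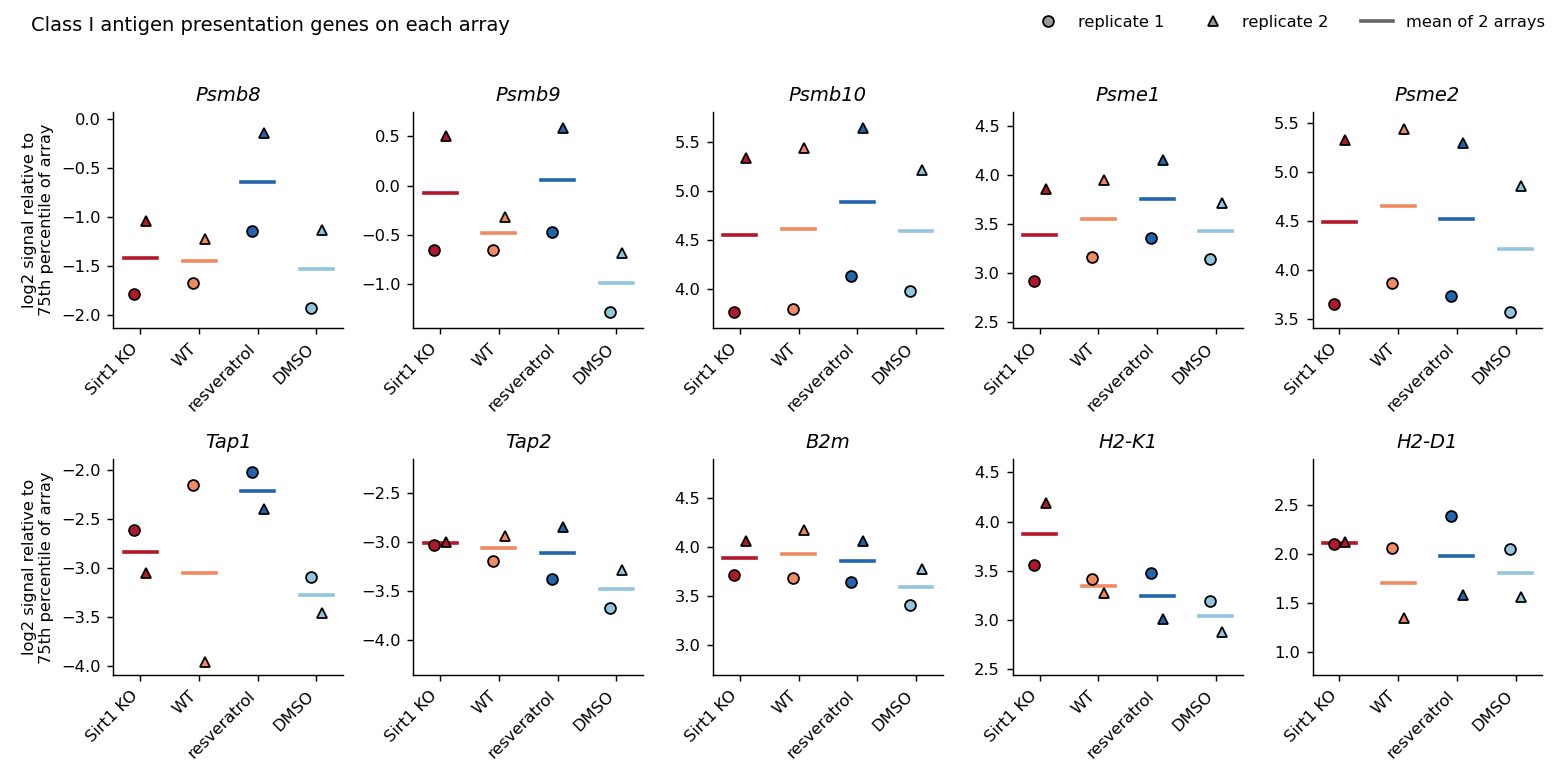
Level of each class I antigen presentation gene on each of the 8 arrays (log2 signal relative to the array's 75th percentile, y axis), with circles for replicate 1, triangles for replicate 2 and bars for the mean of the 2 arrays of a group. In Psmb8, Psmb9 and Tap1 the resveratrol bar lies highest and the DMSO bar lowest, and in Psmb10, Psme1 and Psme2 the triangles lie above the circles in every group.

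Resveratrol was compared with DMSO to ask what 24 hours of the agent did to these genes. By their brightest probes and relative to the 75th percentile, all 10 members read higher with resveratrol in both within-slide pairs. The largest differences were those of 3 neighbours, Tap1, Psmb9 and Psmb8. In the pair of replicate 2 the 75th percentile was 287 with resveratrol and 377 with DMSO. Before centring, B2m, H2-K1 and H2-D1 were lower with resveratrol in that pair, and the other members higher. By limma on the group means none passed an adjusted p of 0.05, and neither did any other gene of the 13332 (0%), with 201 genes (1.51%) and 0 members at an unadjusted p under 0.05. The direction shared by both pairs, higher with resveratrol, held for 10 of 10 members and for 35.5% of all genes, and lower in both pairs for 0 members and 33% of all genes. The median difference of the members was 0.31, against 0.01 for all genes, on the log2 scale.

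Psmb8, Psmb9 and Psmb10 encode the catalytic subunits that replace the standard ones in the immunoproteasome. Psmb8 read -1.14 and -0.14 on the resveratrol arrays and -1.92 and -1.14 on the DMSO arrays, replicates 1 and 2 in this order here and below. The higher DMSO array just exceeded the lower resveratrol array, and the difference was 0.89 ± 0.47 (SE, n = 2 each), a 1.85-fold higher mean. Another Psmb8 probe gave 0.87. Each SE of a difference, here and below, is the moderated one of the limma fit. It uses a spread pooled over the 4 groups and 8 arrays and is not the SE of the compared groups alone. Psmb9 read -0.47 and 0.58 on the resveratrol arrays and -1.29 and -0.69 on the DMSO arrays. Here every resveratrol array lay above every DMSO array, with a difference of 1.04 ± 0.51 (SE, n = 2 each), 2.06-fold. Psmb10 differed far less, with 4.14 and 5.64 on resveratrol arrays and 3.99 and 5.21 on DMSO arrays, a difference of 0.29 ± 0.85 (SE, n = 2 each) that was smaller than the gap between the replicates of either group.

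Tap1 and Tap2 form the transporter that carries peptides into the endoplasmic reticulum. Tap1 read -2.03 and -2.40 with resveratrol and -3.09 and -3.46 with DMSO. The groups did not overlap, and the pairs differed by 1.06 and 1.06, a mean of 1.06 ± 0.59 (SE, n = 2 each) or 2.09-fold. The pooled spread behind this SE includes WT, where the SD of Tap1 was 1.28 and replicate 2 was not well above background. With resveratrol and with DMSO the SD was 0.26. With normexp background correction the Tap1 difference was 0.51. Tap2, its partner, read -3.38 and -2.84 with resveratrol and -3.67 and -3.29 with DMSO. The Tap2 groups overlapped, and its difference was 0.37 ± 0.35 (SE, n = 2 each). By the lower of the 2 pair differences, Tap1 ranked 68, Psmb9 149 and Psmb8 158 of 13332 genes, and Tap2 ranked 998. The unadjusted p by limma was 0.119 for Tap1, 0.0795 for Psmb9 and 0.104 for Psmb8.

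Non-overlap of the groups, with both resveratrol arrays above both DMSO arrays, was met by Psmb9 and Tap1, 2 of 10 members, against 10.2% of all genes.

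Psme1 and Psme2 encode the PA28 activator that caps the proteasome. Psme1 read 3.36 and 4.16 with resveratrol and 3.15 and 3.72 with DMSO, a difference of 0.33 ± 0.48 (SE, n = 2 each). Psme2 read 3.73 and 5.29 with resveratrol and 3.58 and 4.86 with DMSO, a difference of 0.30 ± 0.87 (SE, n = 2 each). For both genes the pair of replicate 2 differed by 0.44 and the pair of replicate 1 by less, 0.21 for Psme1 and 0.16 for Psme2.

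B2m encodes beta-2-microglobulin, the light chain of every class I molecule, and H2-K1 and H2-D1 encode the classical heavy chains that hold the peptide. B2m read 3.65 and 4.07 with resveratrol and 3.41 and 3.78 with DMSO, a difference of 0.26 ± 0.32 (SE, n = 2 each), and its pairs, 0.23 and 0.29, were close to each other. H2-K1 read 3.48 and 3.01 with resveratrol and 3.19 and 2.88 with DMSO, a difference of 0.21 ± 0.32 (SE, n = 2 each). H2-D1 read 2.38 and 1.58 with resveratrol and 2.05 and 1.57 with DMSO, and its pair of replicate 2 differed by only 0.01. The 3 remaining heavy chain probes went below 0 in that pair, to -0.05 and -0.21 for H2-K1 and -0.02 for H2-D1. The heavy chains were thus the members for which the direction rested on the pair of replicate 1.

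**Figure D2:**
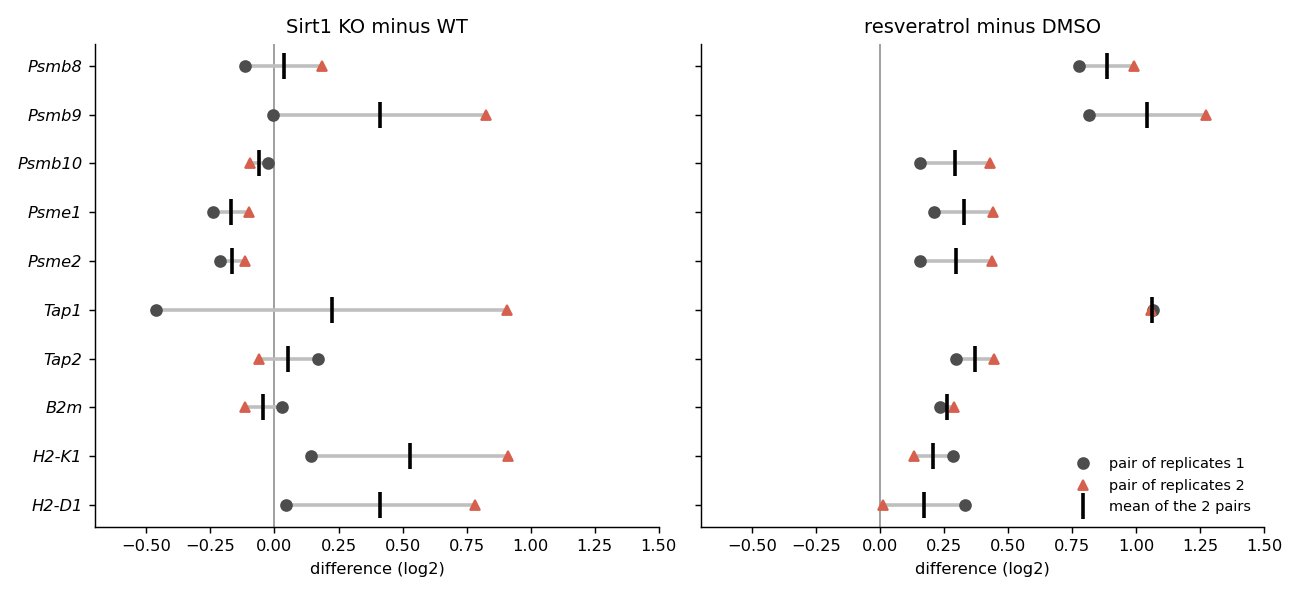
Difference of each member between arrays of the same replicate number (log2, x axis), for Sirt1 KO minus WT on the left and resveratrol minus DMSO on the right, with circles for the replicate 1 pair, triangles for the replicate 2 pair and a black bar for their mean. With resveratrol all points lie to the right of 0, from 0.01 for H2-D1 to 1.27 for Psmb9, and in Sirt1 KO minus WT 5 members have points on both sides of 0.

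In limma with slide as a block, the differences between resveratrol and DMSO were the same, since both pairs lay within slides, and the adjusted p of every member was 1. The summed linear signal of the 17 microglia and macrophage markers, most of which were not above background, was 3.03 and 6.21 with resveratrol and 2.95 and 3.87 with DMSO, and that of the 10 class II presentation markers was 3.08 and 1.90 with resveratrol and 1.99 and 1.33 with DMSO, both relative to the 75th percentile. Both sums were higher with resveratrol in both pairs. The sum of the 11 oligodendrocyte markers was lower in both, at 33.0 and 15.5 with resveratrol and 38.3 and 22.5 with DMSO, and that of the 9 neuron markers too, at 10.2 and 10.1 with resveratrol and 11.4 and 11.3 with DMSO. The progenitor, endothelial and pericyte and fibroblast sums went opposite ways in the pairs. By tested gene, 3 of 5 microglia and macrophage and 4 of 5 class II genes were higher in both pairs, with 1 lower in each list. Of 10 oligodendrocyte genes 0 were higher and 6 lower in both, and of 6 neuron genes 1 and 3. The shares of all genes were 35.5% higher and 33% lower. The part of these markers in the members' differences was not tested.

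**Figure D3:**
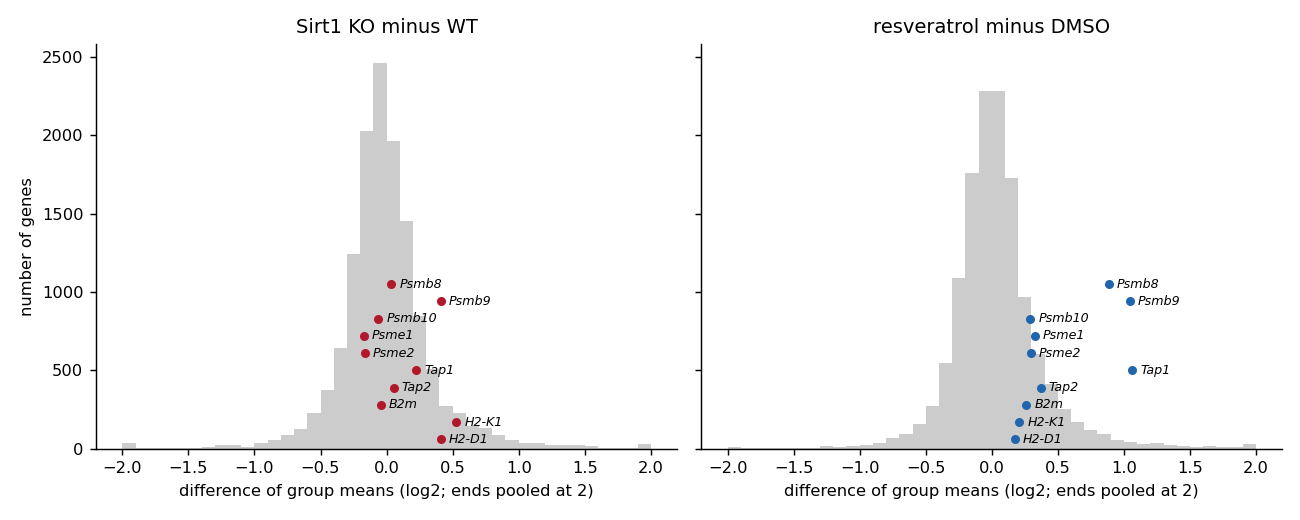
Histogram of the difference of group means over all 13332 genes (log2, x axis, number of genes on the y axis; differences beyond 2 pooled in the end bins), for Sirt1 KO minus WT on the left and resveratrol minus DMSO on the right, with each member as a point at its own difference (the height of the points carries no value). With resveratrol Psmb8, Psmb9 and Tap1 lie out in the right tail at 0.89 to 1.06, and the other members lie at 0.17 to 0.37.

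The arrays labelled Sirt1 KO were compared with WT to ask what loss of SIRT1 did to these genes. By their brightest probes, H2-K1 and H2-D1 read higher on both arrays labelled Sirt1 KO than on either WT array, mostly through the male pair on slide 3. The proteasome members Psmb10, Psme1 and Psme2 read slightly lower in both pairs, a mean difference whose sign normexp background correction turned. By limma none of the members passed, and neither did any other gene (0%), with 160 genes (1.2%) and 0 members at an unadjusted p under 0.05. Counted by pair, 2 members were higher in both pairs (23.6% of all genes), 3 were lower in both (32.5%), and 5 had opposite signs (44%). The median difference of the members was 0.04, against -0.03 for all genes.

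H2-K1 read 3.56 and 4.19 on the arrays labelled Sirt1 KO and 3.42 and 3.28 on the WT arrays. The pairs differed by 0.14 and 0.91, a mean of 0.53 ± 0.32 (SE, n = 2 each) or 1.44-fold, with an adjusted p of 1 in limma. H2-D1 read 2.10 and 2.13 on the arrays labelled Sirt1 KO and 2.06 and 1.34 on the WT arrays. Its pairs differed by 0.04 and 0.78, a mean of 0.41 ± 0.37 (SE, n = 2 each). In both genes the male pair carried the difference, and WT replicate 2 was the lowest of the 4 arrays. The other H2-K1 probes had pair differences of 0.31 and 0.96 for one and 0.07 and 1.42 for the other, and the other H2-D1 probe -0.11 and 0.84. Non-overlap with Sirt1 KO above WT was met by the brightest probes of H2-K1 and H2-D1, 2 of 10 members, against 7.66% of all genes. The H2-K1 probe with pair differences of 0.07 and 1.42 met it too. That with 0.31 and 0.96 did not, with 0.12 on Sirt1 KO replicate 2 and 0.13 on WT replicate 1. Nor did the other H2-D1 probe, with 1.87 on Sirt1 KO replicate 1 and 1.98 on WT replicate 1. H2-K1 and H2-D1 belong to a family of near-identical genes, and whether their probes also bind transcripts of other heavy chain genes was not tested.

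Psmb9 read -0.66 and 0.51 on the arrays labelled Sirt1 KO and -0.65 and -0.32 on the WT arrays, so that only the male pair differed, by 0.83. Tap1 read -2.61 and -3.05 on the arrays labelled Sirt1 KO and -2.15 and -3.96 on the WT arrays, lower in the female pair by 0.46 and higher in the male pair by 0.91. The last of these Tap1 values, on WT replicate 2, was the single member level not well above background, with a processed intensity of 16.0. Psmb8 read -1.79 and -1.04 on the arrays labelled Sirt1 KO and -1.67 and -1.22 on the WT arrays, and Tap2 read -3.03 and -2.997 on the arrays labelled Sirt1 KO and -3.19 and -2.94 on the WT arrays. Neither separated the groups, with differences of 0.04 ± 0.47 for Psmb8 and 0.05 ± 0.35 for Tap2 (SE, n = 2 each).

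Psme1 read 2.92 and 3.86 on the arrays labelled Sirt1 KO and 3.16 and 3.95 on the WT arrays, a difference of -0.17 ± 0.48 (SE, n = 2 each). Psme2 read 3.65 and 5.32 on the arrays labelled Sirt1 KO and 3.87 and 5.44 on the WT arrays, a difference of -0.16 ± 0.87 (SE, n = 2 each), while its other probe gave 0.03. Psmb10 read 3.77 and 5.34 on the arrays labelled Sirt1 KO and 3.80 and 5.44 on the WT arrays, a difference of -0.06 ± 0.85 (SE, n = 2 each). These differences of group means were small beside the gap between the replicates of a group. B2m was level, with 3.72 and 4.06 on the arrays labelled Sirt1 KO and 3.69 and 4.17 on the WT arrays, and a difference of -0.04 with a 95% interval from -0.81 to 0.72.

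With slide as a block, whose terms rest partly on the C57BL/6 arrays, the H2-K1 and H2-D1 differences were 0.76 and 0.74, with an adjusted p of 0.507 for each in limma, and those of Psmb10, Psme1 and Psme2 were -0.61, -0.43 and -0.72. With normexp the H2-K1 difference was 0.85 and that of H2-D1 0.63. The summed microglia and macrophage markers were 2.28 and 4.77 on the arrays labelled Sirt1 KO and 2.04 and 5.00 on the WT arrays, and the class II markers 1.75 and 1.42 on the arrays labelled Sirt1 KO and 1.17 and 1.31 on the WT arrays. The sum of the endothelial markers was 1.32 and 0.971 on the arrays labelled Sirt1 KO and 0.594 and 0.742 on the WT arrays, and that of the oligodendrocyte markers 25.6 and 17.7 on the arrays labelled Sirt1 KO and 26.6 and 18.4 on the WT arrays. The class II and endothelial sums were thus higher on the arrays labelled Sirt1 KO in both pairs. So were 2 of the 5 class II and 3 of the 5 endothelial genes tested, with 1 lower in each list. The oligodendrocyte sum was lower in both pairs. Of the 10 oligodendrocyte genes tested, however, 5 were higher and 2 lower in both pairs, with a median difference of 0.34. Of all genes 23.6% were higher and 32.5% lower in both pairs. The part of these markers in the heavy chain values was not tested.

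The difference between the 2 comparisons was tested as an interaction in limma. Of the members 8 had a smaller Sirt1 KO minus WT than resveratrol minus DMSO difference, and H2-K1 and H2-D1 a larger one. Of all 13332 genes, 7478 had a smaller and 5854 a larger one. The widest contrasts were -0.85 ± 0.67 (SE, n = 2 each) for Psmb8 and -0.84 ± 0.84 for Tap1, against 0.32 ± 0.45 for H2-K1. No gene of the 13332 passed (0%), with 126 genes (0.945%) and 0 members at an unadjusted p under 0.05, and the adjusted p of every member was 1.

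Untreated 129/ICR WT cultures and DMSO cultures of C57BL/6 give the level of the genes without either perturbation, and differ in strain, solvent and, for replicate 1, sex, and for replicate 2 in slide and scan day, which cannot be told apart. This comparison uses the same WT and DMSO arrays as those above. By limma 10 genes passed between WT and DMSO (0.075%), of which 0 were members, with 747 genes (5.6%) and 0 members at an unadjusted p under 0.05. With replicate number as a block 1462 genes (11%) passed, and Psme2 was the 1 member among them, at an adjusted p of 0.0468 by limma. This block has its own term in each arm and does not pair WT with DMSO. It takes the gap between replicates out of the error, and the SE of Psme2 fell from 0.87 to 0.11. Psmb9 was higher in WT by 0.50 ± 0.51, Tap2 by 0.42 ± 0.35 and H2-K1 by 0.31 ± 0.32 (SE, n = 2 each), and in these 3 of 10 members both WT arrays lay above both DMSO arrays, against 13.4% of all genes. Psme2 was higher by 0.43 ± 0.87, B2m by 0.34 ± 0.32 and Tap1 by 0.22 ± 0.59, and H2-D1 differed by -0.11 ± 0.37 (SE, n = 2 each). The signs of H2-K1 and B2m turned with normexp, those of H2-K1 and H2-D1 with averaged probes, that of Psme2 with the slide or scan day block and that of H2-D1 with the scan day block. Psmb8 (0.08), Psmb10 (0.02) and Psme1 (0.12) were nearly level. The 3 H2-K1 probes did not agree in direction, with 0.31, -0.37 and -0.01, and the 2 B2m probes gave 0.34 and 0.90. The classical heavy chains differ in sequence between mouse strains, and how well each probe matches the alleles of 129/ICR was not tested.

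Taking all 4 arrays of each strain, 125 genes passed in limma (0.938%) and 0 members did, with 1292 genes (9.69%) and 0 members at an unadjusted p under 0.05. With replicate number as a block 2757 genes (20.7%) passed. H2-K1, by its brightest probe, was the 1 member among them, at an adjusted p of 0.0322 by limma. This comparison mixes genotype and treatment with strain. The brightest H2-K1 probe read highest on the arrays labelled Sirt1 KO, at 3.56 and 4.19. Another H2-K1 probe was lower on average in the arm of the Sirt1 KO and WT arrays. It read 0.44 and 0.12 on Sirt1 KO, 0.13 and -0.84 on WT, 0.71 and -0.46 on resveratrol and 0.43 and -0.40 on DMSO arrays. The remaining H2-K1 probe was higher on average in that arm. H2-K1 had the largest member difference, 0.47 ± 0.23 (SE, n = 4 each), with an adjusted p of 0.621. Psmb8 was the lowest, at -0.34 ± 0.33 (SE, n = 4 each). Its highest level, -0.14, was that of resveratrol replicate 2 in the C57BL/6 arm.

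For Psmb10, Psme1, Psme2 and B2m the 2 arrays of every group lay further apart than any of the group means did. Psmb10 read 1.22 to 1.64 higher on replicate 2 than on replicate 1 in the 4 groups, and Psme2 1.28 to 1.66 higher. Psme1 (0.57 to 0.93), Psmb8 (0.45 to 0.999), Psmb9 (0.33 to 1.16), B2m (0.34 to 0.48) and Tap2 (0.03 to 0.53) also read higher on replicate 2 in every group. These 7 of 10 members compare with 44.3% of all genes, whose median replicate difference was 0.15 to 0.26. Tap1 went the other way in every group, by -0.37 to -1.81, as did 21.3% of all genes. H2-K1 and H2-D1 were lower on replicate 2 in 3 groups and higher in the arrays labelled Sirt1 KO, by 0.63 for H2-K1 and 0.02 for H2-D1.

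The processed intensities before centring did not show the same split. Psmb8, Psmb9, Psme1, Tap2 and B2m, whose centred levels were higher on replicate 2, were lower there before centring in every group. In WT, replicates 1 and 2, Psme1 was 7379 and 3860 and B2m 10640 and 4498. Tap1, H2-K1 and H2-D1 were also lower on replicate 2 in every group. Psmb10 and Psme2 were lower on it in WT and higher in the other groups. Psmb10 lay between 10792 and 14298 and Psme2 between 8900 and 12614 on all 8 arrays, a narrow range beside the 75th percentiles of 249 to 872. Tap1 lay between 16.0 and 186 and H2-D1 between 632 and 3746, each with its lowest value on WT replicate 2, the dimmest array. The part of array brightness in the replicate differences was not tested.

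**Figure D4:**
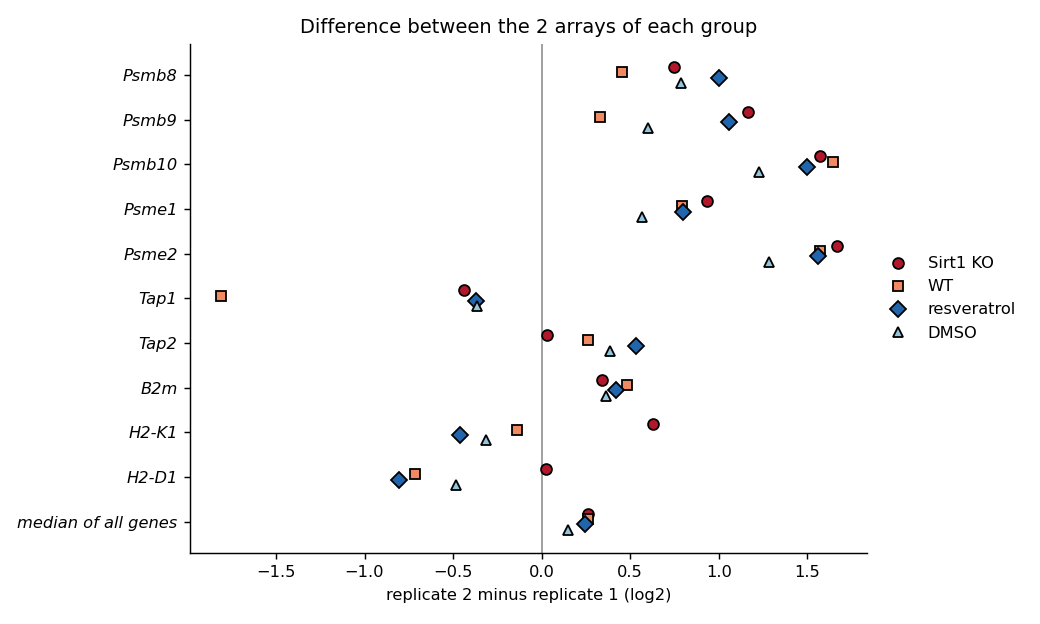
Replicate 2 minus replicate 1 within each group (log2, x axis) for each member and, in the bottom row, for the median of all genes, with a symbol for each of the 4 groups. Psmb10 and Psme2 sit near 1.2 to 1.7 in all groups, Tap1 is below 0 in all groups and lowest in WT at -1.81, and H2-K1 and H2-D1 are above 0 in the arrays labelled Sirt1 KO and below 0 in the other groups.

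Across the 8 arrays Psmb10, Psme1 and Psme2 ran closest together, with Pearson r of 0.98 for Psmb10 and Psme1, 0.97 for Psmb10 and Psme2 and 0.95 for Psme1 and Psme2. H2-D1 ran against Psme2 (r = -0.72) and with Tap1 (r = 0.69). These are descriptions over 8 arrays that share replicate number, slide and array brightness. The mean of the 10 members, each centred on its own mean, was -0.04 and 0.48 with resveratrol, -0.25 and 0.42 on the arrays labelled Sirt1 KO, -0.18 and 0.11 in WT and -0.47 and -0.07 in DMSO. The group means therefore ordered as resveratrol (0.22 ± 0.37), Sirt1 KO (0.09 ± 0.47), WT (-0.04 ± 0.20) and DMSO (-0.27 ± 0.29; SD, n = 2 each), and neighbours in this order differed by less than the larger of their SDs.

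The genes whose levels followed that mean most closely were Aldh1a7 (r = 0.985 over 8 arrays), an aldehyde dehydrogenase, Ifitm2 (0.984), an interferon-induced membrane protein, Abcb6 (0.980), Tctn3 (0.978) and Glmp (0.973). Ifitm2 read 2.48 and 3.16 with resveratrol, 2.43 and 3.06 on the arrays labelled Sirt1 KO, 2.37 and 2.69 in WT and 1.92 and 2.44 in DMSO. This is the order of the members' mean, but Ifitm2 was named for its correlation with that mean, so the order is no separate support. With group means removed, which leaves 4 free values, the closest were Rad9a, Alg9, Mpped2, Wdr5b and Ech1, all at r = 0.999 or above.

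The rest of the pathway was followed with 6 lists. With resveratrol, interferon-stimulated genes had a median difference of 0.64 over the 22 measured of 34, with 18 higher and 1 lower in both pairs, and 0 past the test. Of all genes 35.5% were higher and 33% lower in both pairs, the shares beside which the counts of each list are read. Cxcl10, a chemokine, read -2.20 and -2.20 with resveratrol and -3.90 and -3.56 with DMSO, a difference of 1.53 ± 0.41 (SE, n = 2 each), and it was well above background on 6 of 8 arrays. Lgals3bp, a secreted glycoprotein, differed by 1.27 ± 0.46, and Igtp, an interferon-inducible GTPase, by 1.26 ± 0.45 (SE, n = 2 each). In all 3 both resveratrol arrays lay above both DMSO arrays, against 10.2% of all genes. These 3 were named for large differences of the same sign in both pairs, which favours such a separation. The non-classical heavy chains and relatives had a median of 0.20 over 13 genes, with 10 higher and 0 lower in both pairs. They were led by Fcgrt, the neonatal Fc receptor (1.19 ± 0.40), Mr1, which presents vitamin metabolites (0.87 ± 0.39), and Hfe, the hemochromatosis protein (0.72 ± 0.26; SE, n = 2 each).

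Regulators of class I genes had a median of 0.17 over 23 genes, with 13 higher and 6 lower in both pairs. Irf1, a transcription factor of interferon responses, read 0.79 and 1.72 with resveratrol and 0.35 and 0.92 with DMSO, a difference of 0.62 ± 0.42 (SE, n = 2 each). Ifngr2, a chain of the interferon gamma receptor, differed by 0.46 ± 0.39 and Irf9 by 0.43 ± 0.34 (SE, n = 2 each). Peptide loading genes had a median of 0.15, with 7 of 10 higher and 0 lower in both pairs, among them the aminopeptidase Lnpep (0.48 ± 0.29), tapasin, encoded by Tapbp (0.27 ± 0.29), and the trimming enzyme Erap1 (0.25 ± 0.40). The constitutive proteasome core (median 0.16, 9 of 14 higher in both pairs) and the caps and assembly factors (median 0.12, 17 of 24) stayed within narrower limits. Their widest members were Psmb4 at 0.28 and Psmb3 at 0.28 in the core and Psmd2 at 0.26 in the caps, all below every difference of Psmb8, Psmb9 and Tap1. No gene of the 6 lists passed in limma.

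In Sirt1 KO minus WT the other heavy chains had the highest median of the 6 lists, 0.49 over 13 genes, 0.13 in the female pair and 0.95 in the male pair, and with 7 higher and 2 lower in both pairs. For this and the other lists, the shares of all genes were 23.6% higher and 32.5% lower in both pairs. Mr1 read -2.89 and -2.73 on the arrays labelled Sirt1 KO and -3.91 and -3.59 on the WT arrays, a difference of 0.94 ± 0.39 (SE, n = 2 each) that was of like size in both pairs. Fcgrt differed by 0.86 ± 0.40, and H2-T24, well above background on 3 of 8 arrays, by 0.76 ± 0.93 (SE, n = 2 each). Both arrays labelled Sirt1 KO lay above both WT arrays in Mr1 and Fcgrt, against 7.66% of all genes. They too were named for large differences of the same sign in both pairs.

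The other lists were near 0 in Sirt1 KO minus WT, with medians of 0.06 for interferon-stimulated genes (9 of 22 higher and 4 lower in both pairs), 0.00 for peptide loading (1 and 3 of 10), -0.07 for the constitutive core (3 and 6 of 14), -0.05 for caps and assembly (1 and 8 of 24) and -0.08 for regulators (4 and 11 of 23). Isg15, a ubiquitin-like interferon-stimulated protein, read -0.68 and -3.61 on the arrays labelled Sirt1 KO and -5.19 and -4.49 on the WT arrays. Its pairs differed by 4.52 and 0.88, with a mean of 2.70 ± 0.89 (SE, n = 2 each), and Sirt1 KO replicate 1 was far above the other 3 arrays. Gbp2, a guanylate-binding protein, differed by 0.87 ± 0.42, and both genes were well above background on 7 of 8 arrays, so these differences may rest on a level at background. Irgm1, an immunity-related GTPase, differed by -0.56 ± 0.32. Among regulators Socs3, an inhibitor of cytokine signalling, differed by -0.83 ± 0.48, the kinase Tyk2 by 0.57 ± 0.29 and Stat2 by -0.47 ± 0.45. Among genes of the same sign in both pairs, the widest of the loading genes was the peptidase Tpp2 (-0.16 ± 0.20), and in the proteasome lists they were Psmb3 (-0.33 ± 1.01) and Psmd13 (-0.31 ± 0.78; SE, n = 2 each). None of these passed in limma.

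**Figure D5:**
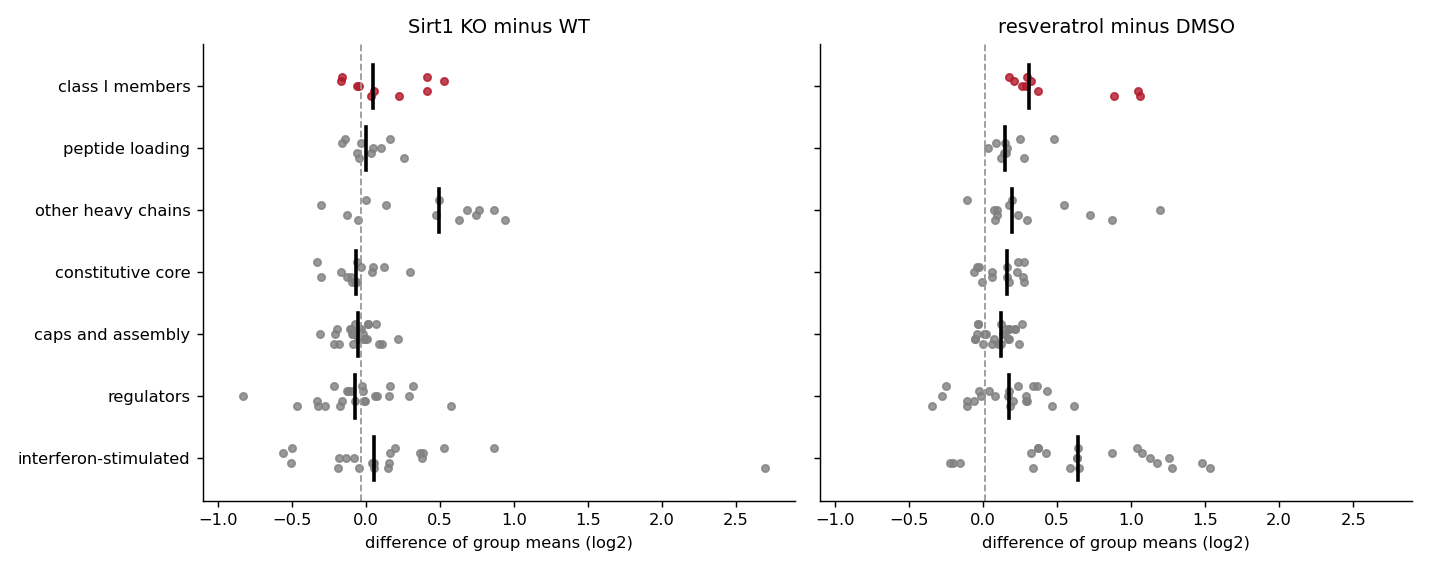
Difference of group means for each measured gene of the 10 members (red, top row) and of 6 lists of the class I pathway (grey), on the log2 scale, for Sirt1 KO minus WT on the left and resveratrol minus DMSO on the right; black bars are list medians and the dashed line is the median of all genes. With resveratrol the medians of the members (0.31) and of interferon-stimulated genes (0.64) lie furthest to the right, and in Sirt1 KO minus WT that of the other heavy chains (0.49) does.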

How the data were processed

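The members and the gene lists were chosen with earlier results of these data known. Per the file headers, the arrays were scanned with Agilent Feature Extraction 10.7.3.1 (10.7 per the submitters' processing notes). The deposited scanner files hold an intensity per spot, corrected for background and spatial trend within the array, and per the file headers flags for spots above background, saturated or outlying. The deposited value table holds log2 values of the same arrays with scale and normalization unstated; its column medians were 6.01 on the 2 arrays of slide 3 and 6.28 on the other 6, so its centring differs between slides. It served as an alternative.

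Of 45018 spots, 1639 controls and outlier flags were left out, and spots of a probe were averaged to 41174 probes. The log2 intensity was centred on each array's 75th percentile. A probe was kept where the scanner software flagged it well above background on each array of 1 or more groups (26362 probes). Accessions were matched to RefSeq symbols; 14256 probes had none. The probe with the highest mean represented a gene with several, giving 13332 genes. Comparisons used limma 3.58.1 (R 4.3.3): a fit of group means over 8 arrays, eBayes with trend, and two-sided p-values adjusted by Benjamini-Hochberg across every gene, at 0.05. Genes outside the 10 members were named by rule: in each list and comparison the 3 with the largest difference among those of the same sign in both pairs, the 5 most correlated with the members' mean before and after removing group means, and defining cell markers. Window alignment used Biopython 1.88. On simulated data for resveratrol against DMSO with 13332 genes, the fit recovered 0% of changes of 1 log2 unit and 74% of changes of 3. Alternatives were quantile normalization, normexp background correction (offset 50, on median signals), the deposited table, no filter, no trend, the mean of a gene's probes, blocks for replicate number, slide and scan day, and leaving out each array.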

Additional observations from a re-analysis of the deposited data

Results flagged for a closer look

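In 5 members the Sirt1 KO minus WT difference had opposite signs in the female pair (replicate 1, on slides 1 and 2) and the male pair (replicate 2, on slide 3), as in 44% of all genes. The male difference minus the female difference was 1.37 for Tap1, 0.83 for Psmb9, 0.30 for Psmb8, -0.23 for Tap2 and -0.14 for B2m, on the log2 scale. The Tap1 value rests on WT replicate 2, where its probe was not well above background, so its size is uncertain. With 1 pair of each sex the difference between the sexes was not tested, and sex, slide and scan day cannot be told apart.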

How the results depend on the processing

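The signs of the members' differences held in 90 of 90 values for resveratrol minus DMSO over 9 alternatives that keep all arrays, in 77 of 90 for Sirt1 KO minus WT and in 72 of 90 for WT minus DMSO, and Psme2 and H2-K1 under the replicate block were the members past the test in any of them. In Sirt1 KO minus WT, normexp turned Psmb8 (-0.44), Tap1 (-0.90), Tap2 (-0.72), B2m (0.30), Psmb10 (0.29), Psme1 (0.14) and Psme2 (0.14), with a member median of 0.18. Quantile normalization turned Psmb8 (-0.0072) and B2m (0.0063) there, the authors' deposited table likewise (-0.0061 and 0.0066), and the slide block turned Psmb8 (-0.29) and Tap2 (-0.15), with a median of -0.18.

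In WT minus DMSO, values that turned were, with normexp, Psmb10 (-0.39), Psme1 (-0.24), B2m (-0.075) and H2-K1 (-0.061), with quantile normalization Psmb10 (-0.048), with the authors' deposited table Psmb8 (-0.031) and Psmb10 (-0.10), with probes averaged H2-K1 (-0.023) and H2-D1 (0.031), with the slide block Psmb8 (-0.057), Psmb10 (-0.51), Psme1 (-0.18) and Psme2 (-0.10), and with the scan day block Psmb8 (-0.22), Psmb10 (-0.79), Psme1 (-0.31), Psme2 (-0.38) and H2-D1 (0.066). The member median in WT minus DMSO was 0.23 with quantile normalization, -0.0015 with normexp, 0.11 in the authors' deposited table, 0.17 with probes averaged, 0.0092 with the slide block and 0.10 with the scan day block. For the difference of differences it was -0.16 with normexp and -0.65 with the slide block.

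With a block for replicate number, the counts of genes past the test were 21 for Sirt1 KO minus WT, 45 for resveratrol minus DMSO, 1462 for WT minus DMSO, 2757 between the strains and 31 for the difference of differences, with 1 member in WT minus DMSO (Psme2, 0.43) and 1 between the strains. It changed no other call of a member, and the smallest adjusted p among members with resveratrol was 0.0811, for Psmb8, by limma. Deviations of same-numbered arrays from their group means correlated at 0.716 for Sirt1 KO with WT, 0.834 for resveratrol with DMSO and 0.588 for WT with DMSO over the 13332 genes. The labels do not say that a number marks a shared animal, culture or day. With 2 pairs an arm the number is not taken as a pairing, and in the treatment arm it is the slide. For WT minus DMSO and between the strains the block pairs no arrays and takes the gap between replicates out of the error. The slide block gave 134 genes for WT minus DMSO and 611 between the strains, normexp 3 and 68, and the scan day block 25 for WT minus DMSO.

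Leaving out 1 array at a time gave 0 to 5 genes for Sirt1 KO minus WT and for the difference of differences, 0 to 8 for WT minus DMSO and 23 to 64 between the strains, against 125 with all arrays. It gave 0 genes in each case for resveratrol minus DMSO, and 0 members in every comparison. For Sirt1 KO minus WT there were 5 genes with either of the arrays labelled Sirt1 KO left out and 1 without WT 1, for the difference of differences 5 without Sirt1 KO 2, and for WT minus DMSO 0 without WT 2, DMSO 1 or DMSO 2. Of the members higher with resveratrol, Psmb10, Psme1 and Psme2 turned without resveratrol 2, Psmb10 and Psme2 without DMSO 1, H2-K1 and H2-D1 without resveratrol 1 and H2-D1 without DMSO 2. The lone array left in a group was assumed to vary like those of the other groups. The ranges of the log2 difference Sirt1 KO minus WT were -0.34 to 0.41 for Psmb8, -0.17 to 0.99 for Psmb9, -0.88 to 0.76 for Psmb10, -0.64 to 0.30 for Psme1, -0.997 to 0.67 for Psme2, -0.68 to 1.13 for Tap1, -0.076 to 0.18 for Tap2, -0.29 to 0.20 for B2m, 0.21 to 0.84 for H2-K1 and 0.055 to 0.77 for H2-D1, with a member median of -0.19 to 0.42. The ranges of the log2 difference resveratrol minus DMSO were 0.39 to 1.38 for Psmb8, 0.52 to 1.57 for Psmb9, -0.46 to 1.04 for Psmb10, -0.072 to 0.72 for Psme1, -0.49 to 1.08 for Psme2, 0.88 to 1.25 for Tap1, 0.11 to 0.64 for Tap2, 0.052 to 0.47 for B2m, -0.024 to 0.44 for H2-K1 and -0.23 to 0.58 for H2-D1, with a member median of 0.25 to 0.80. The ranges of the log2 difference WT minus DMSO were -0.31 to 0.47 for Psmb8, 0.20 to 0.80 for Psmb9, -0.80 to 0.84 for Psmb10, -0.27 to 0.52 for Psme1, -0.35 to 1.22 for Psme2, -0.69 to 1.12 for Tap1, 0.23 to 0.61 for Tap2, 0.095 to 0.58 for B2m, 0.16 to 0.47 for H2-K1 and -0.46 to 0.25 for H2-D1, with a member median of 0.14 to 0.53. The median between the strains ranged over -0.10 to 0.26. The median for the difference of differences ranged over -0.79 to -0.040.

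Depth here is signal over background: on the replicate 2 arrays Tap1 and Tap2 read 16.0 to 54.4 in processed intensity, the lowest of the members. In simulation for resveratrol against DMSO over 13332 genes, the replicate block recovered 82% of changes of 1 log2 unit, with 16 false calls, and the fit of group means 0%, with 4. Each fit had its own simulated data, drawn with the residual spread of that fit. The data for the block also held a shared replicate shift, so the rates do not compare the fits on the same data. The cause of the turned signs was not tested.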
